A study of Caenorhabditis elegans with 2 samples.

Results

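The splicing factor genes of C. elegans were examined for binding of the tagged protein ZK185.1 at their starts. They were taken as the protein-coding genes whose symbols begin with snr, rsp, prp, uaf or sap and a number, which gave 32 genes of 19973 on the nuclear chromosomes. Of these, 7 encode Sm proteins (snr), 8 carry the SR protein symbol (rsp) and 17 are other factors (prp, uaf, sap). In the RefSeq annotation the products of the snr genes are small nuclear ribonucleoproteins of the Sm ring, and those of rsp-1 to rsp-7 are arginine/serine-rich splicing factors. The product of rsp-8 is described there only as an RNA-binding protein, so its place among SR proteins rests on the symbol.

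The measurements came from ChIP-seq, in which chromatin is sheared, precipitated with an antibody and sequenced. The worms were whole young adult hermaphrodites of strain OP474, genotype unc-119(tm4063) III; wgIs474, collected 56.25 h after starved L1 larvae were synchronised following bleaching. The transgene wgIs474 expresses ZK185.1, a protein with a C2H2-type domain in RefSeq, fused at its C terminus to GFP and FLAG, and GFP was the precipitated tag. The unc-119 allele and the transgene were shared by all worms, and the promoter of the fusion is not given in the sources used here. There was 1 group with 2 biological replicates from separate biosamples, no untagged or mutant group was analysed here, and signals of whole worms cannot be assigned to a tissue.

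The spliceosome removes introns from pre-mRNA. Its small nuclear ribonucleoproteins (snRNPs) are each built on a small nuclear RNA, and most of these RNAs are encircled by a ring of Sm proteins. SR proteins bind RNA and help to recruit the U1 snRNP and the U2AF factor to splice sites, while proteins named after yeast prp mutants act in assembly, activation and catalysis. In nematodes many transcripts also receive a spliced leader by trans-splicing, so that an annotated gene start can lie downstream of the true start of transcription, and many genes sit in operons read from a single upstream promoter.

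The authors deposited 3 relaxed lists of 30000 regions each, for replicate 1, replicate 2 and the pooled reads, and a list of 2053 peaks past their reproducibility (IDR) threshold, here called thresholded peaks. Each region has a summit and a signal, the authors' peak height on an unstated scale, so signals are compared only within a list and ranks run from 1 for the strongest. Sequencing depth is unknown from these files. A gene was credited with the strongest region whose summit lay from 1000 bp upstream to 200 bp downstream of its annotated start. Positions are on ce11, negative values lie upstream, and counts of genes are descriptions, without a test, because neighbouring genes can share a peak.

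Taking the strongest thresholded peak of each splicing factor gene gave 9 peaks, and several of these held a common short word near the summit. A further thresholded peak, the weaker of those in the window of rsp-6, was not among the 9, and shares with it included are given where they were computed. The word GACGCA, read on either strand (its reverse complement is TGCGTC), stood within 50 bp of the summit at 5 of the 9 peaks (55.6%), against 174 of 1035 thresholded peaks at coding gene starts (16.8%) and 755 of 27488 pooled regions over 500 bp from any thresholded summit (2.75%). With the further peak, which does not hold it, the count was 5 of 10. It was picked, after its counts were seen, from the 5 words of 6 bases whose share in all nuclear thresholded peaks exceeded that in those distant regions by most. The windows of 101 bases centred on the summits of the 5 peaks that hold it, and of 2 strong or shared peaks that do not, are printed here from RefSeq's WBcel235 (ce11) genome with the word in capitals.
rsp-6, chrIV:7791335-7791435, plus strand: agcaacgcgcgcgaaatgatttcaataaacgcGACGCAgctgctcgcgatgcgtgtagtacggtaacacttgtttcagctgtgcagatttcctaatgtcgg
rsp-1 and rsp-2, chrII:11453141-11453241, plus strand: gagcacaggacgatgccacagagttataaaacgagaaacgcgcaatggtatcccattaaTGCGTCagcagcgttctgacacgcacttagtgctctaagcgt
prp-40 and clu-1, chrIII:9521820-9521920, plus strand: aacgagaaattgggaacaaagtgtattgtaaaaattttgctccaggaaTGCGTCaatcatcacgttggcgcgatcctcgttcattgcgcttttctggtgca
snr-1 and snx-13, chrIV:17087574-17087674, plus strand: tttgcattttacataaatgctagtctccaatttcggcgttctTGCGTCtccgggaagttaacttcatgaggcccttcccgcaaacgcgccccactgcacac
rsp-7 and snu-13, chrII:10658866-10658966, plus strand: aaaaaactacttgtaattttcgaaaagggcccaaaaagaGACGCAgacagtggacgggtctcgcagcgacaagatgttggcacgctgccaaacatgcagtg
prp-19 and K10D2.5, chrIII:5172625-5172725, plus strand: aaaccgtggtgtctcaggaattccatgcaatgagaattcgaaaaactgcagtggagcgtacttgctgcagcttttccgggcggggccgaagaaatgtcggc
rsp-5 and snr-3, chrII:6489901-6490001, plus strand: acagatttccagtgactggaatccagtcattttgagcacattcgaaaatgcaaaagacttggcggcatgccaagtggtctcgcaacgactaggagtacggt

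The first 5 windows hold the word once each, and the last 2 do not hold it. Its first base on the plus strand lay 18, 2, 8 and 11 bp before the summit at rsp-6, prp-40, snr-1 and rsp-7, and 9 bp after it at rsp-1 and rsp-2. ACGCAG, which overlaps it by 5 bases, was found at 2 of the 9 splicing factor peaks (22.2%), against 15.7% of the peaks at coding starts and 2.59% of the distant regions. AGAGAC was found at 1 of 9 (11.1%), against 16.4% of the peaks at coding starts and 5.4% of the distant regions. The remaining top words, GAGAGA and its overlapping neighbour AGAGAG, were at 0 of 9 splicing factor peaks, against 20.2% and 16.6% of the peaks at coding starts. The word CTGCGTC, which contains the reverse complement of the word shown, was at 2 of 9, against 9.86% of the peaks at coding starts and 1.32% of the distant regions. The TATA word TATAAA was also at 2 of 9, against 4.06% and 10.9%. So was TTTCAG, against 7.34% of the peaks at coding starts and 17.6% of the distant regions, while CCGCCC was at 1 of 9, against 6.67% and 1.55%. With the further peak included, TATAAA and TTTCAG were at 3 of 10 each, and the counts of the other words stayed as given. Base composition also differed between these sets of windows. The median GC content of the windows was 48.5% at the 9 splicing factor peaks, 46.5% at coding starts and 35.6% in the distant regions, and its part in the word counts was not tested.

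Splicing factor genes carried a thresholded peak at 11 of 32 starts (34.4%), against 6.77% of all nuclear protein-coding genes. SR genes had the largest share, with 5 of 8 (62.5%: rsp-1, rsp-2, rsp-5, rsp-6 and rsp-7), followed by Sm genes with 3 of 7 (42.9%: snr-1, snr-3 and snr-4). Other factors had peaks at 3 of 17 (17.6%: prp-8, prp-19 and prp-40). The classes are small and share a peak, so their order is a description only. With each summit counted only for the nearest coding start, 7 of 32 genes kept a peak, against 4.93% of coding genes, and prp-19, rsp-2, rsp-5 and snr-1 lost theirs to their neighbours. In the relaxed lists the classes were closer together. The pooled relaxed list had a region at 21 of 32 splicing factor genes (65.6%), against 36.8% of all coding genes, made up of 7 of 8 SR, 4 of 7 Sm and 10 of 17 other genes. Replicate 1 had a region at 21 of 32 as well, against 36.8%, and replicate 2 at 22 of 32 (68.8%), against 37.3%. The strongest peaks of the 11 genes were 9 peaks, whose median signal was 142 (range 69.6 to 389), against 102 for the 1035 thresholded peaks at coding starts. With the further peak the median of 10 was 136 and the lowest signal 61.9.

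**Figure D1:**
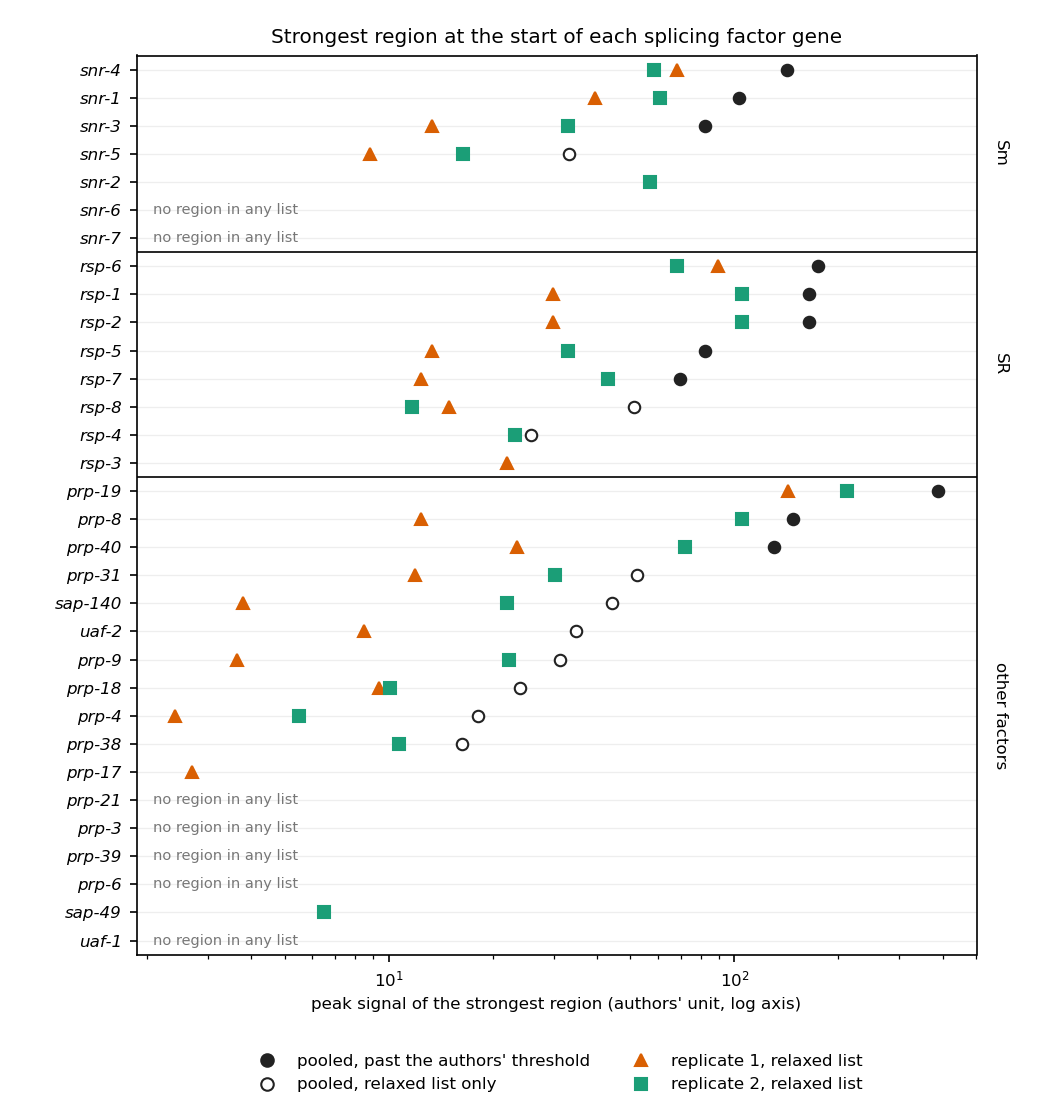
Peak signal of the strongest region in the start window of each of the 32 genes, on a log axis in the authors' unit; circles are the pooled data (filled where past the authors' threshold, open where only in the relaxed list), triangles replicate 1 and squares replicate 2. The filled circles run from 69.6 at rsp-7 to 389 at prp-19, and 7 genes have no region in any list.

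Among Sm genes, snr-4, which encodes SmD2, had the strongest peak. The strongest regions in its window had signals of 142 in the pooled data (rank 537), 68.1 in replicate 1 and 58.7 in replicate 2. The peak, at chrV:11980094-11980409, had its summit 529 bp upstream of snr-4 (WBGene00004917). This pooled summit lay inside a snRNA gene of 144 bases, WBGene00014291 (chrV:11980118-11980261, plus strand), 134 bp from the start of that gene. The replicate summits lay outside the snRNA gene, at chrV:11980285 in replicate 1 and chrV:11980080 in replicate 2. They were 33 and 172 bp from the pooled summit. Of 129 annotated snRNA genes, 4 are at least 90% identical to WBGene00014291, 1 of them fully. Reads from these copies may be assigned to any of them, and the position is uncertain. None of the 4 copies had a thresholded summit within 500 bp.

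The peak at snr-1 (WBGene00004914, SmD3) lay between snr-1 and snx-13, a divergent sorting nexin gene whose start is 611 bp away. The signals were 103 pooled (rank 911), 39.4 in replicate 1 and 61.0 in replicate 2, with the summit 425 bp upstream of snr-1 and 186 bp upstream of snx-13 (chrIV:17087466-17087781). snr-3 (WBGene00004916), the gene of SmD1, lay across from rsp-5 and shared its peak. snr-5 (SmF) had only a relaxed region, with signals of 33.3 pooled (rank 4500), 8.79 in replicate 1 and 16.4 in replicate 2, and its replicate summits lay 173 and 176 bp from the pooled one. snr-2, the gene of SmB, had no pooled region in its window, although replicate 2 had one with a signal of 57.1 (rank 830), 359 bp upstream of the start, and replicate 1 had none. A thresholded peak with a signal of 204 lay 2104 bp upstream of snr-2, outside the window of any coding gene. snr-6 (SmE) and snr-7 (SmG) had no region in any list.

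SR genes accounted for 4 of the 9 peaks, 1 of them shared with snr-3. rsp-6 (WBGene00004703) had the strongest of these, with signals of 174 pooled (rank 365), 89.4 in replicate 1 (rank 211) and 68.2 in replicate 2 (rank 615). Its summit was 156 bp upstream of the start (chrIV:7791254-7791446), and the replicate summits lay within 4 bp of it. The further thresholded peak in the rsp-6 window, at chrIV:7792054-7792369, had a signal of 61.9 (rank 1814), and its summit lay 983 bp upstream of rsp-6 and 51 bp downstream of the start of C33H5.13.

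The divergent genes rsp-1 (WBGene00004698) and rsp-2 (WBGene00004699), whose starts are 407 bp apart, shared the peak at chrII:11453121-11453280. Its signal was 164 pooled (rank 410), 29.9 in replicate 1 (rank 1216) and 105 in replicate 2 (rank 290). The summit was 171 bp upstream of rsp-1 and 236 bp upstream of rsp-2, so that it lay nearer to rsp-1, and the replicate summits were 3 and 4 bp from it. rsp-5 (WBGene00004702) and snr-3, with starts 404 bp apart, had their shared peak at chrII:6489920-6489998. The signals there were 82.3 pooled (rank 1238), 13.3 in replicate 1 (rank 4288) and 32.9 in replicate 2 (rank 1852), and the summit was 214 bp upstream of rsp-5 and 190 bp upstream of snr-3. rsp-7 (WBGene00004704) had the weakest of these 9 peaks, at chrII:10658758-10659073, with signals of 69.6 pooled (rank 1543), 12.4 in replicate 1 (rank 4808) and 43.0 in replicate 2 (rank 1247). Its summit lay midway, 290 bp from the starts of rsp-7 and of the divergent gene snu-13, which encodes an snRNP-associated protein, and it overlaps M28.13, a non-coding RNA gene that starts 19 bp before it. In each of these 3 pairs both genes encode proteins associated with splicing.

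**Figure D2:**
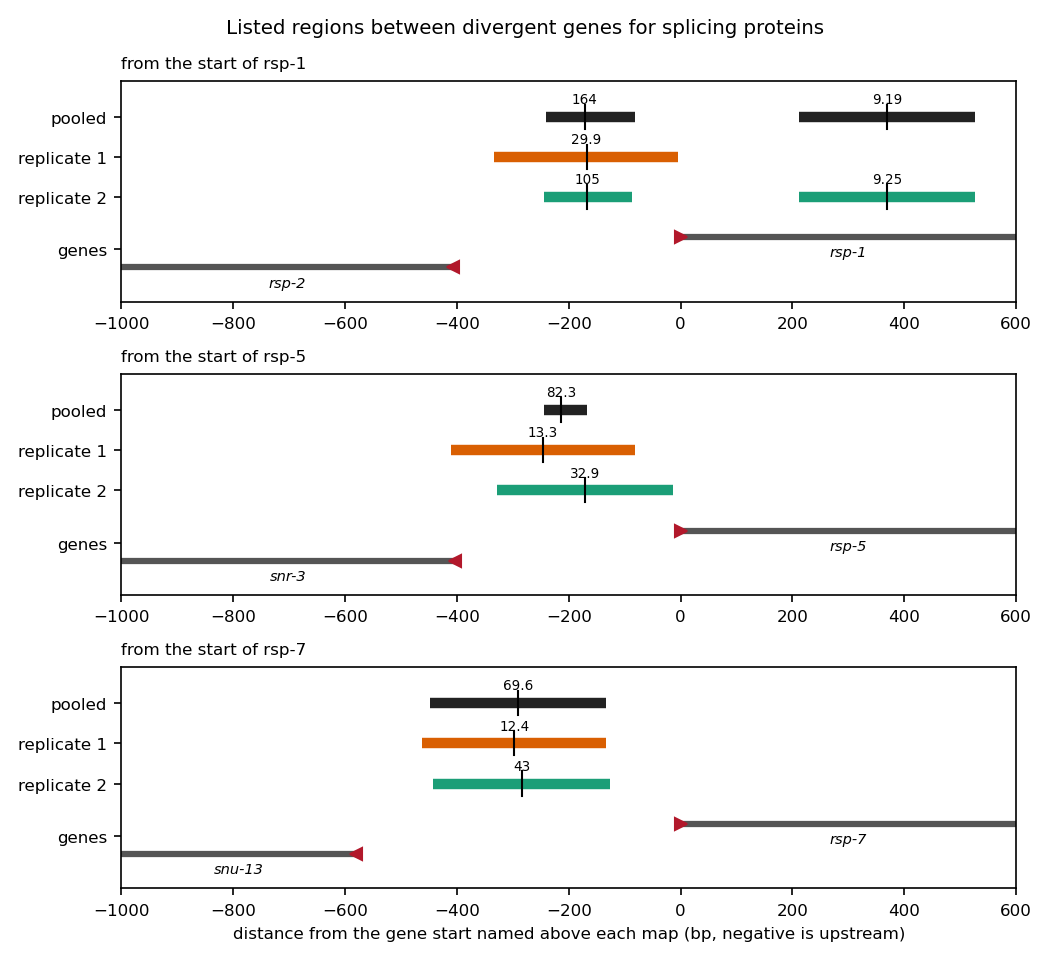
Listed regions (bars) and their summits (vertical ticks, with the signal above) between rsp-1 and rsp-2, rsp-5 and snr-3, and rsp-7 and snu-13, plotted by distance in bp from the start of the first gene of each pair; arrowheads mark gene starts. In each pair the strongest summits of the pooled data and of both replicates fall between the diverging starts, with pooled signals of 164, 82.3 and 69.6.

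The remaining SR genes had no thresholded peak. The lowest thresholded signal was 57.0, and rsp-8 and rsp-4 had pooled regions below it. rsp-8 had signals of 51.1 pooled (rank 2410), 14.9 in replicate 1 and 11.7 in replicate 2, at 567 bp upstream. rsp-4, the homologue of human SC35, had a pooled signal of 25.7 at 64 bp downstream of its start and 23.2 in replicate 2, with no region in replicate 1. rsp-3, the homologue of human SF2/ASF, had no pooled region and none in replicate 2, but a region with a signal of 21.9 (rank 1944) in replicate 1, 277 bp upstream.

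Among the other factors, prp-19 (WBGene00020423), which encodes the ubiquitin ligase of the Prp19 complex, had the highest signal of the set. Its values were 389 pooled (rank 64), 143 in replicate 1 (rank 88) and 211 in replicate 2 (rank 55), and the summits of all 3 lists lay within 22 bp of the pooled one. The peak, at chrIII:5172593-5172790, was 630 bp upstream of prp-19 but only 45 bp upstream of K10D2.5, a divergent gene that RefSeq describes as uncharacterised, and 764 bp upstream of emb-1, an anaphase-promoting complex subunit gene on the strand of K10D2.5.

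prp-8 (WBGene00004187), the gene of the U5 snRNP protein at the catalytic core, had a peak that rested mainly on replicate 2. The signals were 148 pooled (rank 497), 12.4 in replicate 1 (rank 4779) and 105 in replicate 2 (rank 289). The summit lay 291 bp upstream of prp-8 and 699 bp upstream of bath-42, a divergent BTB and MATH domain gene (chrIII:8164026-8164151). prp-40 (WBGene00014218), whose yeast counterpart belongs to the U1 snRNP, shared its peak with clu-1, the homologue of the clustered mitochondria gene. Its signals were 130 pooled (rank 627), 23.5 in replicate 1 (rank 1740) and 72.1 in replicate 2 (rank 572), at 205 bp upstream of prp-40 and 410 bp upstream of clu-1 (chrIII:9521854-9521935).

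Of the other factors without a thresholded peak, 7 had a pooled region. prp-31, the gene of a U4/U6 snRNP protein, came closest, with signals of 52.3 pooled (rank 2329), 11.9 in replicate 1 and 30.2 in replicate 2. sap-140 had 44.3 pooled (rank 2914), 3.79 in replicate 1 and 22.0 in replicate 2, and its replicate 1 summit lay 570 bp from the pooled one. A thresholded peak with a signal of 108 lay 1220 bp upstream of sap-140 and 686 bp upstream of cgh-1. uaf-2, the small U2AF subunit gene, had 34.9 pooled (rank 4171) and 8.48 in replicate 1, 689 bp apart, and none in replicate 2. prp-9, named after a yeast SF3a subunit, had 31.2 pooled (rank 4950), 3.63 in replicate 1 and 22.3 in replicate 2. The second-step factor gene prp-18 had 24.0 pooled (rank 7526), 9.36 in replicate 1 and 10.1 in replicate 2. At the lower end, prp-4 and prp-38 had pooled signals of 18.1 and 16.3.

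No pooled region was found at 11 genes. Besides snr-2, rsp-3, snr-6 and snr-7, these were prp-3, prp-6, prp-17, prp-21, prp-39, sap-49, which encodes a subunit of SF3b, and uaf-1, the large U2AF subunit gene. prp-17 had a replicate 1 region with a signal of 2.7 and sap-49 a replicate 2 region with 6.51, both far down their lists at ranks 27649 and 19302. The lists hold long stretches with no region at all, and 8 of these 11 genes lay in them. In the pooled list 726 stretches of over 20 kb, up to 647 kb long, had no summit, and together they made up 41.4% of the nuclear genome and 36.8% of its coding genes. The 8 genes were prp-3, prp-6, prp-17, prp-21, rsp-3, snr-6, snr-7 and uaf-1. Of the length of the replicate 1 stretches, 85.4% also fell in those of replicate 2. Why the lists are blank there was not tested, so a gene in such a stretch is listed as without a region, not as unbound. These stretches were then left out, a choice made after seeing the data. Among the rest, 11 of 24 splicing factor genes had a thresholded peak (45.8%), against 9.98% of coding genes. Every thresholded peak is also a pooled region, so this step removes mostly genes without a peak and raises both shares. The 8 genes left out had no pooled region, so the count of 11 could not change.

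Summits at splicing factor genes lay mostly upstream, near the position seen over all coding genes with a peak. The window reaches 1000 bp upstream and only 200 bp downstream, which itself favours upstream summits. The median position at the 11 genes was -236 bp, against -248 bp over all coding genes with a thresholded peak, of which 95% had their strongest summit upstream. The farthest were prp-19 at -630, snr-4 at -529 and snr-1 at -425 bp, and the nearest was rsp-6 at -156 bp. rsp-4 was the only gene of the set whose strongest pooled summit lay downstream of the start.

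**Figure D3:**
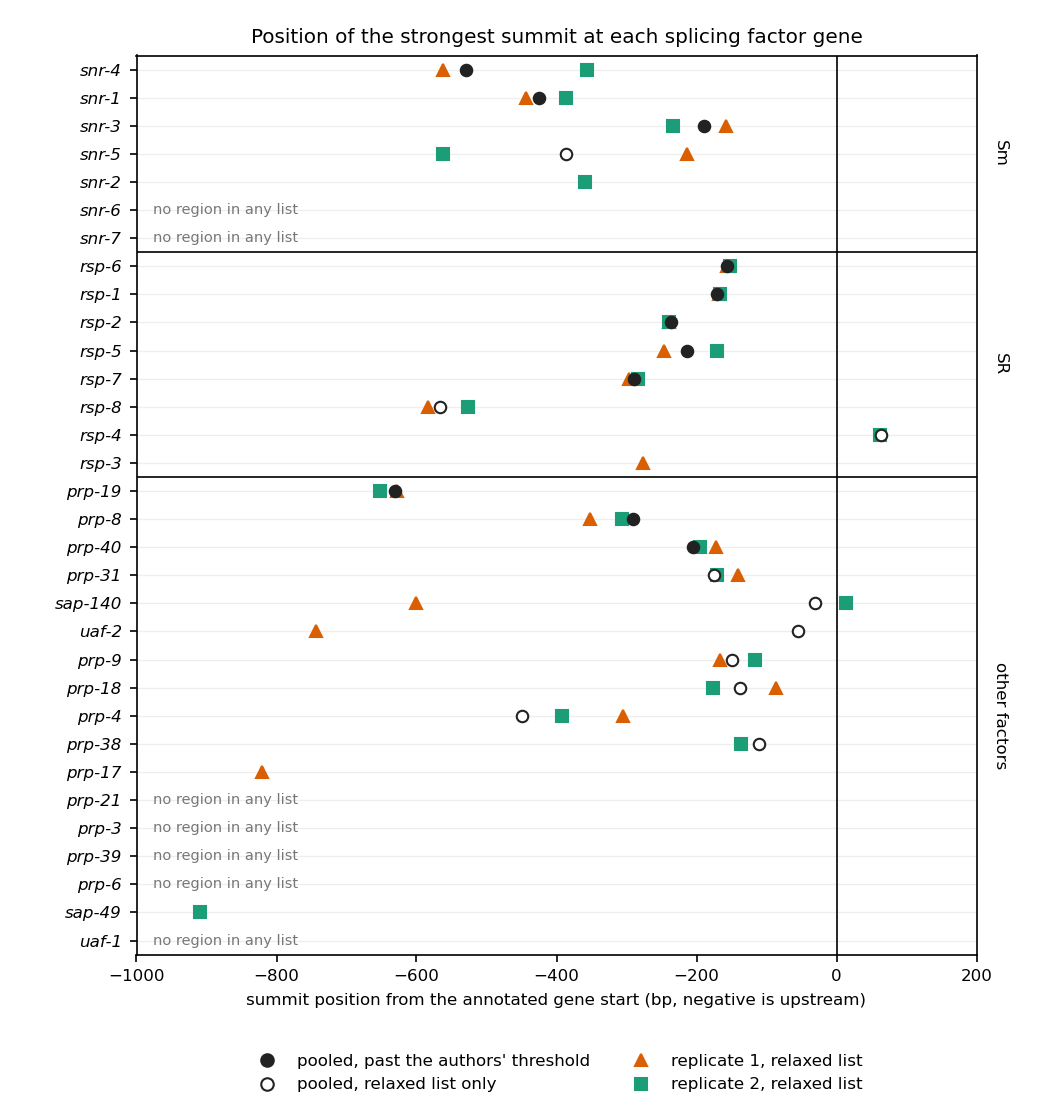
Position in bp of the strongest summit from the annotated start of each gene, negative upstream, with circles for the pooled data (filled where past the authors' threshold), triangles for replicate 1 and squares for replicate 2. The filled circles run from -630 bp at prp-19 to -156 bp at rsp-6, all upstream of the start.

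All 11 genes with a thresholded peak had a region in both replicate lists, but their ranks were unequal. The threshold itself selects for reproducibility, so presence in both lists was largely set by that choice. At 9 of the 11 genes the region stood nearer the top of the list in replicate 2 than in replicate 1. The exceptions were rsp-6 and snr-4. The 9 genes rest on fewer regions, since rsp-1 and rsp-2 share a region, as do rsp-5 and snr-3. The presence in both lists, the count of 9, and the median ranks and summit matches below have no value over all coding genes beside them. A difference between the lists as a whole therefore cannot be told apart from a trait of these genes. Ranks of the 11 genes had a median of 1216 in replicate 1, of 615 in replicate 2 and of 537 in the pooled data. The ranks in replicate 1 and replicate 2 differed most at prp-8, by a factor of 16.5. Over the 18 genes with a region in both replicates, Spearman's rho of the ranks was 0.74, given as a description because divergent genes share regions. At 14 genes the strongest summits of both replicates lay within 100 bp of the pooled one. snr-4 was the exception among the 11 genes, with its replicate 2 summit 172 bp from the pooled one.

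Peaks at splicing factor genes were mostly in the space between diverging genes. A divergent coding gene with its start within 1000 bp lay upstream of 21 of the 32 genes, and 9 of these had a thresholded peak (42.9%), against 15.3% of the 3617 coding genes arranged in this way. With a gene on the same strand ending within 500 bp upstream, 1 of 6 had a peak (16.7%, rsp-6), against 5.61% of such genes. With any other neighbour the count was 1 of 5 (20%, snr-4), against 4.64%. The share was above that of all coding genes in each arrangement, although the tandem and other neighbours rest on 1 gene each. Seen by peak, 7 of the 9 peaks lay in start windows on both strands (77.8%), against 30.0% of the 1035 thresholded peaks at coding starts. With the further peak at rsp-6 it was 7 of 10. These shares were not matched for arrangement: a divergent neighbour lay at 21 of 32 splicing factor genes, against 3617 of 19973 coding genes. At peaks on both strands binding cannot be assigned to either gene. The partner encoded a splicing protein at rsp-1 and rsp-2, rsp-5 and snr-3, and rsp-7 and snu-13, and another kind of protein at prp-8, prp-40 and snr-1, while that of prp-19 is uncharacterised.

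**Figure D4:**
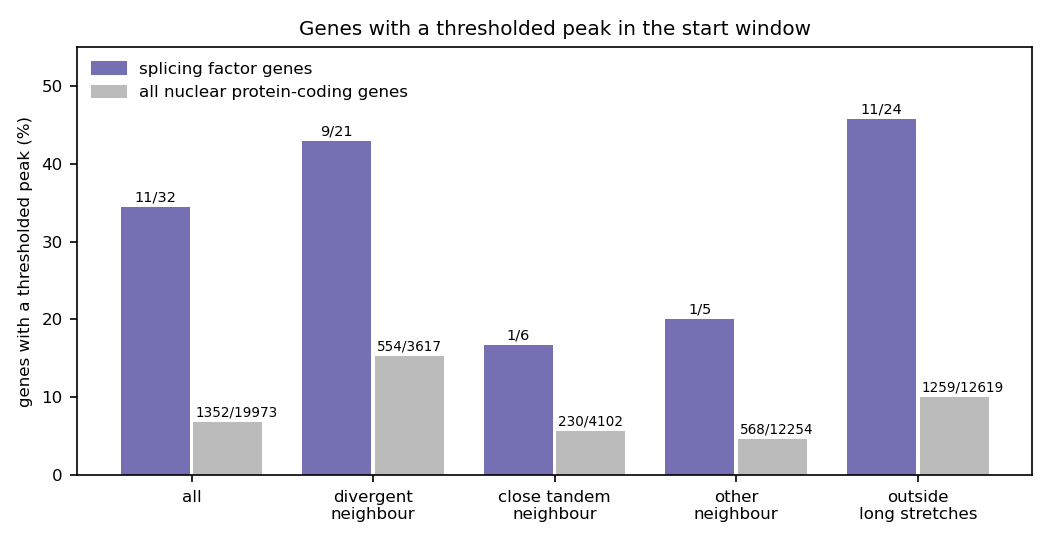
Percent of genes with a thresholded peak in the start window, for splicing factor genes (purple) and all nuclear protein-coding genes (grey), over all genes, by upstream neighbour and outside stretches of over 20 kb without a pooled summit; the counts stand above the bars. The purple bar is higher in each pair, with 34.4% against 6.77% over all genes. With other neighbours it is 20% against 4.64% and rests on 1 of 5 genes. The last pair leaves out mostly genes without a peak, which raises both of its bars.

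The 6 genes close behind another gene on the same strand were followed upstream along the run of such genes, as an operon would be read; operons themselves are not annotated in the reference used here. Of these, 3 had a thresholded peak at the first gene of the run (50%), against 14.7% of the 4102 coding genes so placed. At some gene upstream in the run 5 had a peak (83.3%), against 16.9%. Among the 5, rsp-6 counts through C33H5.13, by the further peak in its own window (signal 61.9, rank 1814). The shares were not matched for the number of genes upstream, which was 4 at rsp-4 and 3 at rsp-6 and sap-49. prp-38, needed for activation of the spliceosome, lay 107 bp behind plrg-1, itself the gene of a Prp19 complex partner. The peak 202 bp upstream of plrg-1 had signals of 240 pooled (rank 178), 124 in replicate 1 and 90.1 in replicate 2, and it lay 2080 bp upstream of prp-38. Directly at prp-38 the pooled signal was 16.3.

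prp-39, whose yeast counterpart belongs to the U1 snRNP, lay 91 bp behind hmgs-1, the gene of HMG-CoA synthase. The peak 177 bp upstream of hmgs-1 had signals of 108 pooled (rank 846), 8.4 in replicate 1 and 87.4 in replicate 2, and it also lay 107 bp upstream of the divergent gene F25B4.4. sap-49 stood in a run that begins with the ubiquitin hydrolase gene ubh-4, 25 bp downstream of a peak with signals of 130 pooled (rank 626), 33.6 in replicate 1 and 62.3 in replicate 2, which was 3855 bp upstream of sap-49. At rsp-4 the peak was 258 bp upstream of ndx-6, a nudix hydrolase gene that overlaps rsp-4 by 7 bp, with signals of 143 pooled (rank 525), 25.6 in replicate 1 and 83.0 in replicate 2. The first gene of that run, fbxl-3, had no thresholded peak. At prp-3, 345 bp behind the chromatin remodeller gene smrd-1, the replicates had regions with signals of 21.7 and 24.7 at smrd-1 and no thresholded peak.

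**Figure D5:**
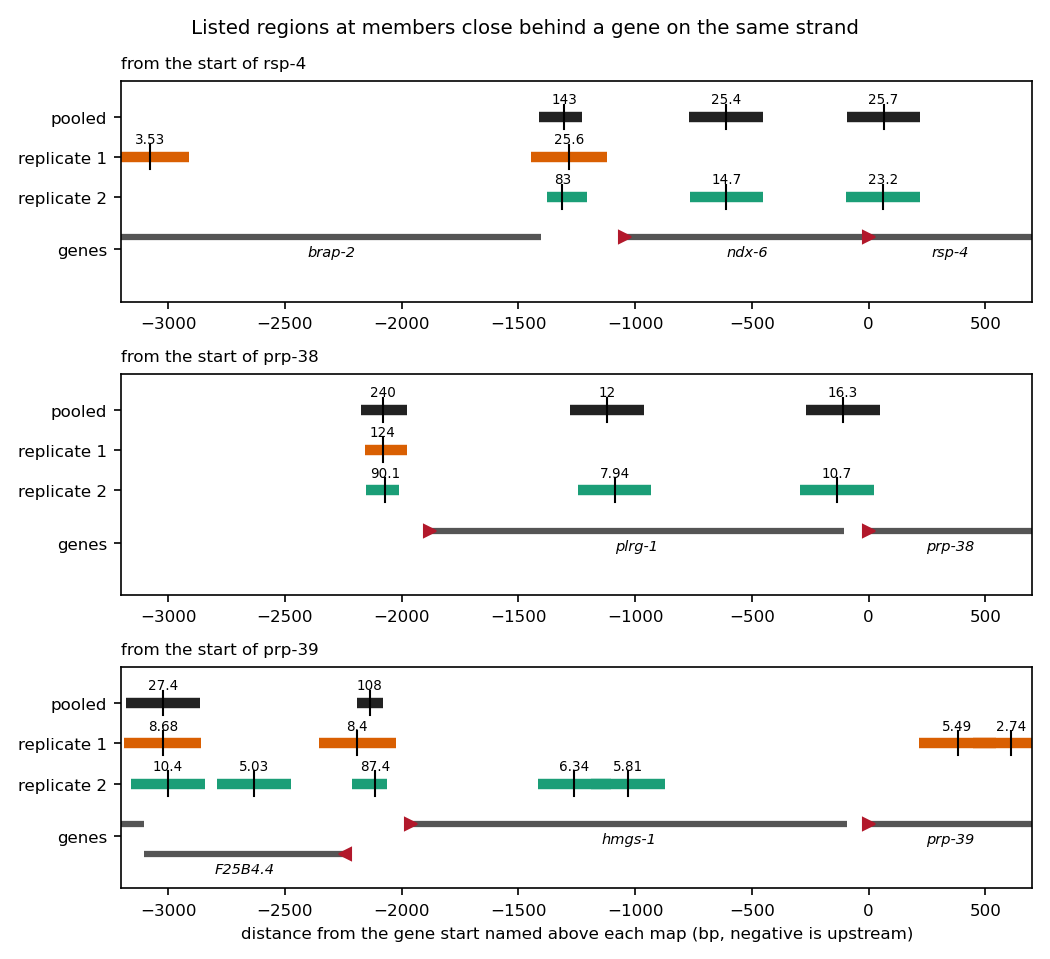
Listed regions (bars) and summits (vertical ticks, with the signal above) upstream of rsp-4, prp-38 and prp-39, by distance in bp from the start of each gene; arrowheads mark gene starts and lines the gene bodies. The strongest pooled regions, with signals of 143, 240 and 108, lie upstream of ndx-6, plrg-1 and hmgs-1, while the regions at the starts of rsp-4 and prp-38 have 25.7 and 16.3 and prp-39 has none.

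Other genes of the splicing pathway, taken by symbol, had a thresholded peak at 23 of 86 starts (26.7%), against 6.77% of all coding genes. With each summit counted only for the nearest coding start, 16 of 86 kept a peak, against 4.93% of coding genes. The symbol patterns also take in some rbm genes that are RNA-binding but not all known for splicing. The label of other snRNP proteins likewise rests on symbols such as rnp and sut, and not all of its genes need encode snRNP proteins. Lsm proteins, which form a ring like that of the Sm proteins on U6 and on decaying mRNA, had 3 of 7 (lsm-1, lsm-3 and lsm-7), the same count as the Sm genes. Helicases and step factors had 6 of 18, hnRNP proteins and alternative splicing regulators 10 of 34, other snRNP proteins 3 of 18, Sm ring assembly factors 1 of 4 and the SF3 and branch point list 0 of 5.

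The strongest of these peaks was at the helicase gene mog-4, with signals of 429 pooled (rank 52), 180 in replicate 1 and 182 in replicate 2, at 220 bp upstream, above that at prp-19. Next came plrg-1, described above, and spk-1, an SR protein kinase gene, with 184 pooled (rank 318), 32.0 in replicate 1 and 104 in replicate 2. snrp-3, the gene of the U1-C protein, had 149 pooled (rank 491), 36.3 in replicate 1 and 77.2 in replicate 2. mog-3 had 148 pooled (rank 502), 55.8 in replicate 1 and 46.2 in replicate 2, and smu-1 had 141 pooled (rank 539), 54.6 in replicate 1 and 69.0 in replicate 2. All 6 summits lay upstream of the start, by 76 to 285 bp.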

How the data were processed

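ChIP-seq of GFP-tagged ZK185.1 was deposited as region lists for 2 replicates of 1 group. Per the manifests deposited with the libraries, relaxed lists were called for each replicate and the pooled reads with a control alignment, and an optimal IDR-thresholded list was derived from them. Which aligner, caller, settings and threshold were used is not given in the sources used here. Deposited values of signal are the authors' peak heights on an unstated scale; the lists on ce10 were not used. All 2053 thresholded peaks were found in the pooled list. Not all had a region in both replicate lists: the start windows of hrpu-2 and rbm-7 held a thresholded peak and no replicate 1 region.

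Genes and starts came from Ensembl release 115 (WBcel235). Each member was given its strongest region per list, and neighbours, runs, stretches without summits, words and GC content were computed with Python 3.11.15, pandas 2.3.3, numpy 2.4.6 and scipy 1.17.1, drawn with matplotlib 3.10.9. Window, neighbour and stretch steps were tested on simulated data. No significance test was run. The members and gene lists were chosen with earlier results of these data known. Members with a thresholded peak are named with all values, then the 8 strongest others, and the 6 strongest other splicing genes. Alternative windows, assignments, stricter lists and single replicates were tried.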

Additional observations from a re-analysis of the deposited data

How the results depend on the processing

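With a start window from 500 bp upstream 9 splicing factor genes had a peak (prp-19 and snr-4 were lost), against 5.42% of coding genes. From 2000 bp upstream it was 13 (rsp-4 and sap-140 were added), against 9.0%. Any transcript start gave the same 11 genes, against 7.28% of coding genes. With each summit counted only for its nearest coding start the count was 7 (prp-19, rsp-2, rsp-5 and snr-1 were lost), against 4.93%, with 3 SR genes and 5 genes beside a divergent neighbour. The 1026 strongest thresholded peaks gave 8 genes, against 3.98%, of which 3 were SR genes, and 13 of the other splicing genes. Genes close behind a tandem neighbour numbered 2 with the longest window, and those with other neighbours 0 with the shortest. Single replicates, cut to 2053 regions, gave 8 to 12 genes. Without replicate 1 it was 12 (snr-2 was added), against 7.0% of coding genes. Without replicate 2 it was 8 (prp-8, rsp-5, rsp-7 and snr-3 were lost and rsp-3 was added), against 5.95%. By class and neighbour these ranges were 2 to 4 for Sm, 4 to 5 for SR, 2 to 3 for other factors, 6 to 10 beside divergent neighbours, 1 in both cases behind tandem neighbours and 1 with others, and 24 in both for other splicing genes. The shares of all coding genes stand beside the class counts too, but no share by neighbour is given under these settings. The median rank of 537 was 1216 in replicate 1. Leaving out stretches of over 50 kb, which again removes mostly genes without a peak, gave 11 of 25 genes, against 8.55%. Runs with gaps up to 250 or 1000 bp had a peak at the first gene for 4 of 4 (18.7% of coding genes) and 3 of 7 (11.4%). These settings were chosen after seeing the data. So was counting every thresholded peak in a window, which gave 10 peaks, 5 with GACGCA and 7 on both strands. Summits of both replicates matched at 12 genes within 50 bp and 17 within 200 bp, and peaks on both strands numbered 5 of 7 and 8 of 11 with the shorter and longer windows. These counts have no value over all coding genes or peaks beside them. GACGCA stood at 5 of 9 peaks within 100 bp too, against 22.1% at coding starts. The cause of these differences was not tested. Depth is unknown, and the files give no interval for a signal.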
